A study of Mus musculus with 6 samples.

Results

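Adrenergic receptors and the cAMP machinery, which carry the noradrenaline signal of brown fat from the cell surface to protein kinase A (PKA), were followed in interscapular brown adipose tissue (iBAT). The genes were the receptors *Adrb1*, *Adrb3*, *Adra1a*, and *Adra2a*, the adenylyl cyclase *Adcy3*, the phosphodiesterase *Pde3b*, and the PKA subunits *Prkaca*, *Prkar2b*, and *Prkar1a*, which make 9 of the 20659 gene symbols on the array. Every probe whose RefSeq accession named one of these genes was kept, 14 probes in all, and the genes were chosen with their values in these same samples known, so their differences between groups are given as a description with no test.

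Noradrenaline from sympathetic nerves acts on β-adrenergic receptors, which couple through the stimulatory G protein to adenylyl cyclase and raise cAMP. Cyclic AMP frees the catalytic subunits of PKA from their regulatory subunits, and PKA then phosphorylates the lipolytic machinery and the transcription factor CREB, while phosphodiesterases degrade cAMP. In rodent brown adipocytes the β3-adrenergic receptor is the receptor best known for this role, and thermogenic genes such as *Ucp1* are among the targets of the pathway.

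The samples were iBAT from male mice on the C57BL/6 background at 16 weeks of age, 3 labelled control and 3 labelled ob/ob, a genotype in which the leptin gene is mutated throughout the body and from birth. Each sample was hybridized to 1 single-color Agilent mouse array. The labels do not state the genotype of the controls beyond the word control, whether tissue of several mice was pooled, or whether the 3 samples of a group came from separate animals, so the spread given here is the spread between samples, which may be technical. Values are log2 signals after quantile normalization, a difference is the ob/ob mean minus the control mean, and 1 log2 unit is a 2-fold change.

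The arrays did not sort by genotype along their main axis of variation. On the first principal component (76.68% of the variance) control 3, at 160.92, lay with ob/ob 1 and 2, at 108.59 and 143.17. The lowest arrays were ob/ob 3 (−208.54), control 1 (−123.94), and control 2 (−80.21). On the second (16.46%) the groups did not overlap, with controls at −60.25, −94.41, and −25.92 and ob/ob samples at 45.54, 35.11, and 99.94. By Spearman correlation over the probes, whose number is not a number of replicates, control 3 lay closer to ob/ob 2 (0.944) than to control 1 (0.642), and ob/ob 3 lay closer to control 1 (0.858) than to ob/ob 2 (0.488). Between 83.5% and 89.9% of spots were well above background, no spot was saturated, and the number of arrays limits the precision. Brown adipocyte markers were detected on at least 3 arrays for 12 of 12 genes, with a mean level of 7.24 to 9.77 in control and 6.71 to 7.99 in ob/ob iBAT, and the brown fat gene *Ucp1* was above background on all 6 arrays. Skeletal muscle markers, 9 of 9 detected, spanned 7.41 to 9.58 in control and 5.74 to 10.7 in ob/ob. Over all genes tested, the median spread within a group was 0.69 log2 units (pooled SD). By correlation over the whole array, control 3 and ob/ob 3 lay nearer to samples 1 and 2 of the other group than to those of their own. In this they go against their labels, whereas the second principal component placed them with their labels. Whether the labels hold was not tested. Every group difference here rests on those labels. The differences of the 8 genes fitted, and the counts of lower genes among these 8 and in the pathway lists, are therefore also given without control 3 and ob/ob 3. The arrays were read in 4 scans, and control 1, control 3, and ob/ob 1 shared one.

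The β3-adrenergic receptor gene had the largest difference among the 9 genes. With values in the order of samples 1, 2, and 3 of each group, here and below, the brighter *Adrb3* probe read 13.45, 12.90, and 9.34 on the control arrays, against 7.19, 7.04, and 7.98 on the ob/ob arrays. All 3 ob/ob samples lay below all 3 controls, and the lowest control exceeded the highest ob/ob sample by 1.36 log2 units. The difference was −4.49 with a standard error of 1.09, a 22.5-fold lower signal, which ranked 5 from the lowest of 19011 genes. Control 3 held a level between the other controls and the ob/ob samples, and the SD within the controls, 2.23, was larger than that of the ob/ob samples, 0.51. The direction was the same without control 3 (−5.77), without ob/ob 3 (−4.78), without both (−6.06), and within the one scan that held both groups (−4.21).

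The dimmer *Adrb3* probe ran the other way. It read 6.12, 6.07, and 8.12 on the control arrays compared with 8.37, 9.18, and 6.64 on the ob/ob arrays. Here the groups overlapped, with control 3 among the high arrays and ob/ob 3 among the low ones, and the difference was 1.30 with a standard error of 0.85 (2.68 without control 3 and ob/ob 3). The brighter probe minus the dimmer one was 7.32 and 6.83 in control 1 and 2, 1.23 in control 3, and −1.18, −2.14, and 1.34 in the ob/ob samples, so the offset between the probes was not constant. Both carry the same RefSeq accession, and where on the transcript each lies was not analysed here. Of 4726 genes with at least 2 tested probes, 2192 (46.4%) had probes with differences of both signs, but in 25 (0.529%) 1 probe was at least 2-fold lower and another at least 2-fold higher, as for *Adrb3*. The 22.5-fold figure therefore belongs to 1 probe, and the mean of both probes was −1.60.

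Most brown adipocyte markers were lower in ob/ob iBAT, as the brighter *Adrb3* probe was. Of the 12 markers 10 had a lower mean in ob/ob iBAT, with a median difference of −2.07. Over all genes tested 57.2% were lower, and the median was −0.09. The marker count was not made without control 3 and ob/ob 3. The mean level of the list was 9.77, 9.26, and 7.24 on the control arrays, against 6.73, 6.71, and 7.99 on the ob/ob arrays. *Ucp1*, the uncoupling protein that defines brown fat, read 13.05, 11.72, and 9.48 on the control arrays compared with 8.93, 9.12, and 10.03 on the ob/ob arrays. In both, control 3 lay below ob/ob 3, so the groups overlapped, unlike with the brighter *Adrb3* probe. The mean of the 8 general adipocyte markers overlapped widely, at 9.23 to 11.2 in control and 9.44 to 11.6 in ob/ob. Endothelial markers, 6 of 6 detected, ranged from 7.74 to 9.38 in control and from 6.82 to 8.32 in ob/ob. In tissue RNA, fewer cells of a type and less RNA per cell cannot be told apart, and the part of these cell types in the *Adrb3* difference was not tested.

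The β1-adrenergic receptor, which also couples to the stimulatory G protein, again had probes of opposite direction. The brighter *Adrb1* probe read 5.38, 5.02, and 7.54 on the control arrays, against 7.87, 8.25, and 6.50 on the ob/ob arrays, a difference of 1.56 with a standard error of 0.81. Control 3 lay above ob/ob 3, so the groups overlapped. The dimmer *Adrb1* probe read 6.74, 5.89, and 4.90 on the control arrays compared with 4.48, 4.79, and 5.72 on the ob/ob arrays, a difference of −0.85 with a standard error of 0.59. The arrays that were high with one probe were low with the other. Without control 3 and ob/ob 3 the differences were 2.86 and −1.68, and the mean of both probes over all 6 arrays was 0.36. The direction of *Adrb1* thus depended on the probe.

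Neither *Adra1a* nor *Adra2a*, the α-adrenergic receptors among the genes followed, gave a difference beyond the spread. *Adra1a*, the α1A receptor, which signals through phospholipase C and calcium, read 5.91, 5.67, and 5.82 on the control arrays, against 5.55, 5.62, and 6.24 on the ob/ob arrays. These values lay within 0.69 log2 units of each other, and the difference was 0.00 with a standard error of 0.34, falling below 0 with the 75th percentile as the scale (−0.24), after normexp background correction (−0.06), within the scan (−0.32), and without control 3 and ob/ob 3 (−0.21). *Adra2a*, the α2A receptor, which couples to the inhibitory G protein and lowers cAMP, was above background on 2 of 3 control arrays and on 0 of 3 ob/ob arrays. Its signal was 3.39, 4.22, and 4.29 on the control arrays compared with 1.83, 4.16, and 3.38 on the ob/ob arrays. With the lowest signals that count as detected in place of the ob/ob values no fold difference could be given, and *Adra2a* entered no count below.

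**Figure D1:**
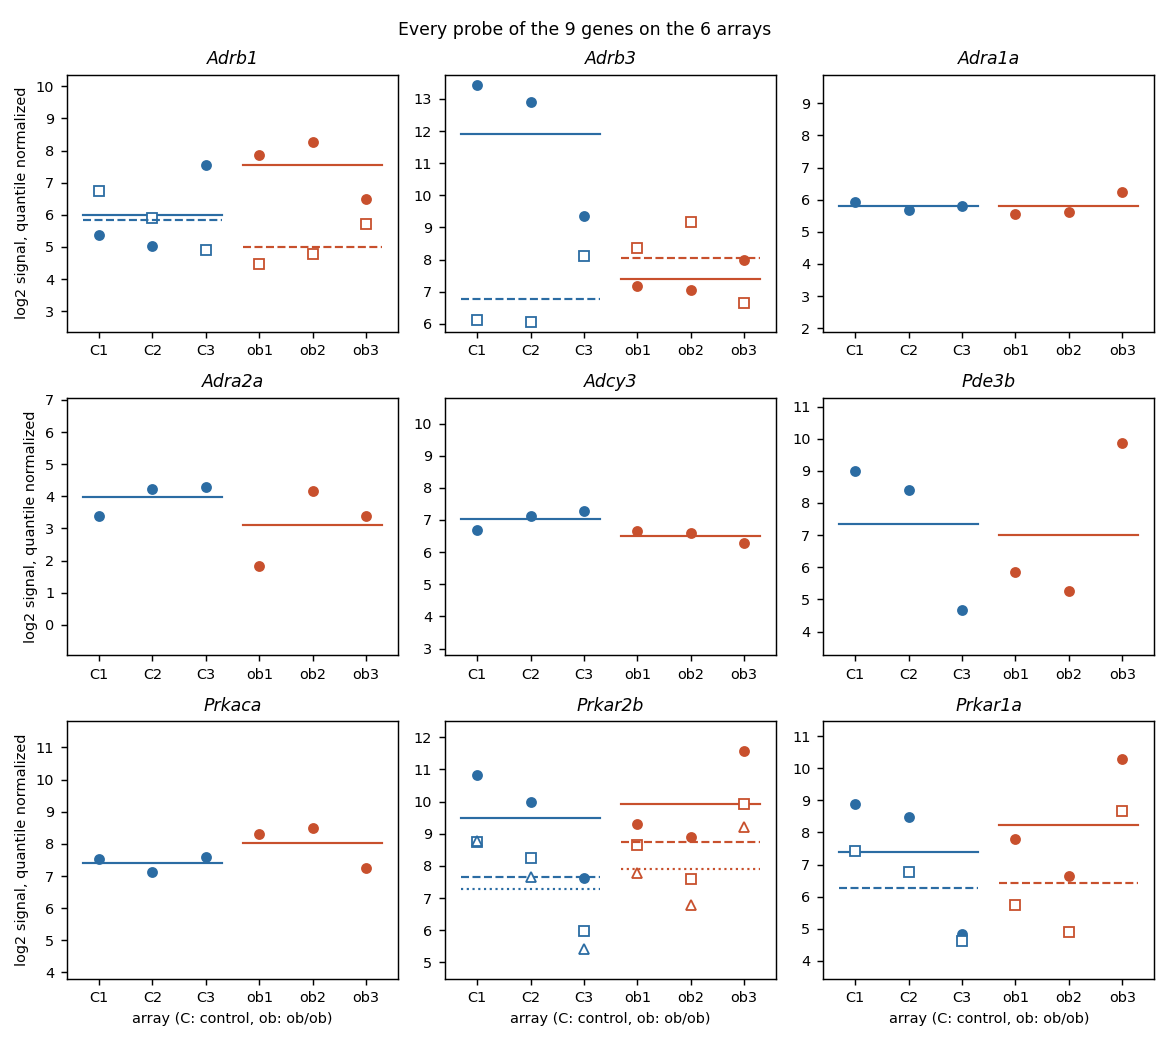
Quantile-normalized log2 signal (vertical axis, each panel 8 log2 units high) of every probe of the 9 genes on the 6 arrays (horizontal axis, C for control in blue and ob for ob/ob in red). Filled circles are the brightest probe of a gene, open squares and triangles its other probes, and horizontal lines the group means (solid, dashed, and dotted in the same order). The brighter *Adrb3* probe is above 9 on every control array and below 8 on every ob/ob array, whereas *Pde3b*, *Prkar2b*, and *Prkar1a* are lowest on C3 and highest on ob3.

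*Adcy3*, an adenylyl cyclase that makes cAMP, was the other gene whose groups did not overlap. It read 6.70, 7.11, and 7.29 on the control arrays, against 6.65, 6.59, and 6.30 on the ob/ob arrays. The gap between the lowest control and the highest ob/ob sample was 0.05 log2 units, and the difference was −0.52 with a standard error of 0.33, a 1.44-fold lower signal. The spread of *Adcy3* within groups was small, with 8.76% of genes below it. The difference was negative under each of its 12 alternative settings, from −0.69 without control 1 to −0.29 without control 3 and ob/ob 3, but under the 75th percentile the median gene was itself at −0.30. With that scale, and after normexp background correction, the groups of *Adcy3* overlapped.

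*Pde3b*, the insulin-activated phosphodiesterase that degrades cAMP in adipocytes, varied mostly within the groups. It read 8.98, 8.40, and 4.66 on the control arrays compared with 5.87, 5.27, and 9.87 on the ob/ob arrays. Control 3 was the lowest of the 6 arrays and ob/ob 3 the highest. The difference was −0.35 with a standard error of 1.60, and 98.1% of genes had a smaller spread within groups. Without control 3 and ob/ob 3 it was −3.12, and without ob/ob 2 alone it was positive at 0.52. *Adipoq*, the adiponectin gene of mature adipocytes, had the same high arrays, at 11.60, 11.13, and 8.63 on the control arrays, against 9.53, 8.71, and 13.11 on the ob/ob arrays. So did the mean of the skeletal muscle markers, at 9.31, 9.58, and 7.41 on the control arrays compared with 5.75, 5.74, and 10.66 on the ob/ob arrays. Their part in the *Pde3b* values was not tested.

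The regulatory subunits of PKA had the same lowest and highest arrays as *Pde3b*. *Prkar2b*, the RIIβ subunit, which is abundant in adipose tissue, had 3 probes. The brightest read 10.84, 9.99, and 7.62 on the control arrays, against 9.29, 8.90, and 11.56 on the ob/ob arrays. The 3 probes differed by 0.43, 1.07, and 0.63 log2 units between the groups, with standard errors of 0.91 to 1.05, and all 3 were lowest in control 3 and highest in ob/ob 3. *Prkar1a*, the RIα subunit, read 8.88, 8.48, and 4.84 on the control arrays compared with 7.80, 6.64, and 10.27 on the ob/ob arrays with its brighter probe. Its probes differed by 0.84 and 0.15, with standard errors of 1.36 and 1.16. Without control 3 and ob/ob 3 the signs turned, to −1.32 for the brightest *Prkar2b* probe and −1.46 for the brighter *Prkar1a* probe, so no direction can be given for either subunit.

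The catalytic subunit had other high arrays. *Prkaca*, which encodes the Cα subunit of PKA, read 7.54, 7.11, and 7.60 on the control arrays, against 8.31, 8.51, and 7.24 on the ob/ob arrays. Both ob/ob 1 and ob/ob 2 lay above all controls, and ob/ob 3 lay among them, and the difference was 0.60 with a standard error of 0.44. It was positive under all 12 alternative settings, from 0.36 without ob/ob 2 to 1.08 without control 3 and ob/ob 3.

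By the brightest probe, 3 of the 8 genes that passed the detection filter, which asked for at least 3 of 6 arrays, were lower in ob/ob iBAT (*Adrb3*, *Adcy3*, and *Pde3b*), and their median difference was 0.22, compared with −0.09 over all 19011 genes tested. In 2 of the 8 every ob/ob array was below every control array, and in 0 every ob/ob array was above, where over all genes the shares were 4.22% and 3.78%. Since the genes were chosen with this contrast known, nothing is read from these counts. Without control 3 and ob/ob 3 the number that were lower was 6, and the median was −0.80, where 8824 of the 19011 genes were lower and their median was 0.07.

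**Figure D2:**
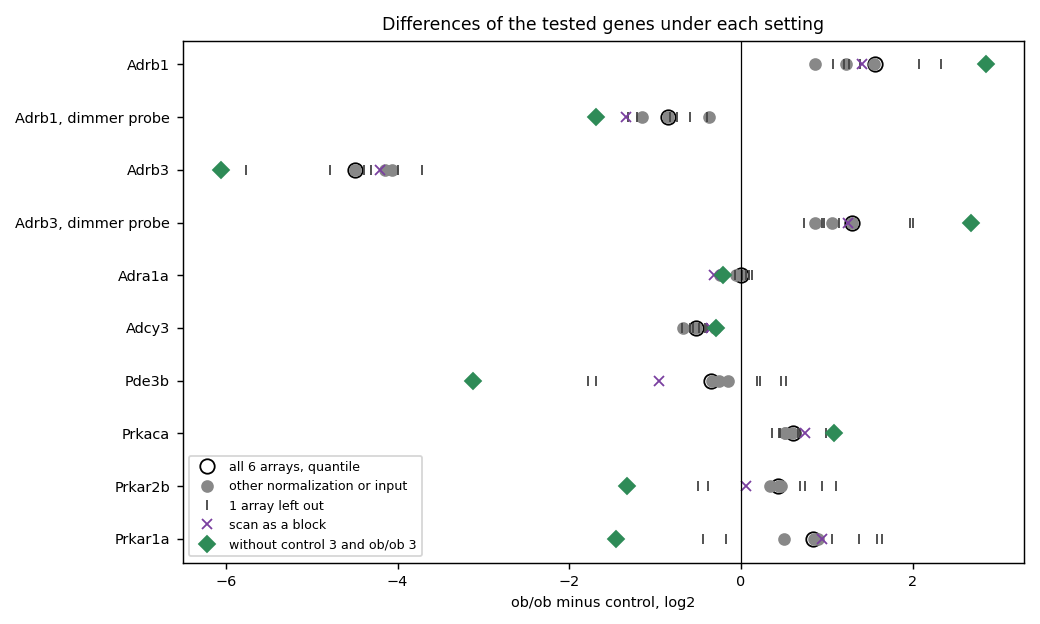
Difference between ob/ob and control in log2 units (horizontal axis) for the 8 tested genes, with the dimmer probes of *Adrb1* and *Adrb3* on rows of their own (vertical axis). Open circles are all 6 arrays with quantile normalization, gray circles another normalization or the authors' values, bars 1 array left out, crosses the scan as a block, and diamonds both control 3 and ob/ob 3 left out. *Adrb3* stays between −6.06 and −3.72 with its brighter probe, whereas *Pde3b*, *Prkar2b*, and *Prkar1a* lie on both sides of 0.

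By Pearson correlation over the 6 arrays with the brighter *Adrb3* probe, among 15884 other genes detected on every array, the highest values were for *Mtres1* (0.996), *H2-T3* (0.996), *Amdhd2* (0.995), *Susd1* (0.993), and *Fmnl2* (0.991). The lowest were for *Srpx2* (−0.993), *Krtap16-3* (−0.992), *Erich5* (−0.990), *Nek6* (−0.989), and *Rac2* (−0.989). *Fmnl2*, a formin, had the largest difference of the first 5, at −3.05, and read 9.01 in control 3, between the other controls (11.44 and 11.81) and the ob/ob samples (7.27 to 8.16), as *Adrb3* did. These correlations rest on 6 points and describe likeness only.

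Other genes of the pathway were read from lists of 82 genes in 11 classes, written with earlier results of these arrays known, of which 75 passed the filter. limma called 0 of the 75 at a Benjamini-Hochberg adjusted p under 0.05 in either direction, beside 0.0% of all genes lower and 0.0% higher, and the methods' t-test also left 0 probes after the same adjustment. At an unadjusted limma p under 0.05, 5 of the 75 were lower (6.67%) and 1 was higher, where over all genes the shares were 1.69% and 2.04%. With a 2-fold difference asked as well, 4 of 75 (5.33%) were lower, where the share over all genes was 1.5%, and 0 were higher, where the share was 1.69% too. Every ob/ob array was below every control array in 8 genes (10.7%) and above in 5 (6.67%), beside 4.22% and 3.78% of all genes. Without control 3 and ob/ob 3, every ob/ob array was below in 38 of the 75 genes and above in 17 of the 75. Over all 19011 genes these numbers were then 6962 (36.6%) and 7252 (38.1%). By sign, 54 of the 75 were lower, 72.0% compared with 57.2% of all genes, and the median difference was −0.29. Without control 3 and ob/ob 3, 44 were lower and the median was −0.44, beside 8824 of all 19011 genes lower and a median of 0.07. Without control 3 and ob/ob 3, which were left out for standing apart, 28 of the 75 were lower and 7 higher at the unadjusted p and 2-fold thresholds, where over all genes the shares were 23.1% and 16.6%. With all 6 arrays no gene passed the adjusted test, so the differences named next are sizes beside their spread and not calls.

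The genes that cAMP induces in brown adipocytes had the lowest median of the 11 classes over all 6 arrays, −1.54. Without control 3 and ob/ob 3 their median was −1.80, and it was then not the lowest. The A-kinase anchoring proteins were at −2.18, and the cAMP-activated exchange factors, with 1 gene tested, at −2.70. With or without control 3 and ob/ob 3, 9 of 9 tested genes of the induced class were lower. Over all genes 57.2% were lower with all 6 arrays, and 8824 of 19011 without these 2. The median signal of the class was 10.06, 9.99, and 7.59 on the control arrays, against 7.05, 6.97, and 8.38 on the ob/ob arrays. Control 3 thus lay below ob/ob 3, and the class medians overlapped between the groups. *Nr4a2*, an orphan nuclear receptor and immediate target of CREB, read 7.46, 7.55, and 7.26 on the control arrays compared with 5.69, 5.85, and 5.84 on the ob/ob arrays. Its groups were far apart and each was tight, with a difference of −1.63, a standard error of 0.30, and an unadjusted limma p of 0.00127 (adjusted p = 1.0, Benjamini-Hochberg). The other *Nr4a2* probe did not overlap either, at −0.97 with a standard error of 0.30. *Nr4a1*, its relative, read 10.83, 10.40, and 9.76 on the control arrays, against 8.69, 8.95, and 8.74 on the ob/ob arrays, a difference of −1.54 with a standard error of 0.38 (past an unadjusted limma p of 0.05). For neither of these genes did control 3 or ob/ob 3 lie with the other group, and without both the differences were −1.74 and −1.80.

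*Ppargc1a*, the coactivator that drives mitochondrial biogenesis, read 10.06, 9.99, and 7.59 on the control arrays compared with 5.81, 5.53, and 7.58 on the ob/ob arrays. The groups did not overlap, but control 3 and ob/ob 3 were nearly level. The difference was −2.91 with a standard error of 0.87, a 7.50-fold lower signal (past an unadjusted limma p of 0.05). *Ucp1* differed by −2.06 with a standard error of 0.92, short of an unadjusted limma p of 0.05. These differences were −4.35 for *Ppargc1a* and −3.36 for *Ucp1* without control 3 and ob/ob 3. *Dio2*, the deiodinase that activates thyroid hormone in brown fat, differed by −0.16 with a standard error of 0.47, and was positive without control 1 (0.22). Of the 9 tested genes 3 (*Nr4a1*, *Nr4a2*, and *Ppargc1a*) passed the unadjusted and fold thresholds, all lower, where over all genes 1.5% were lower at these thresholds. Of the 12 brown adipocyte markers above, 3 are also in this class.

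**Figure D3:**
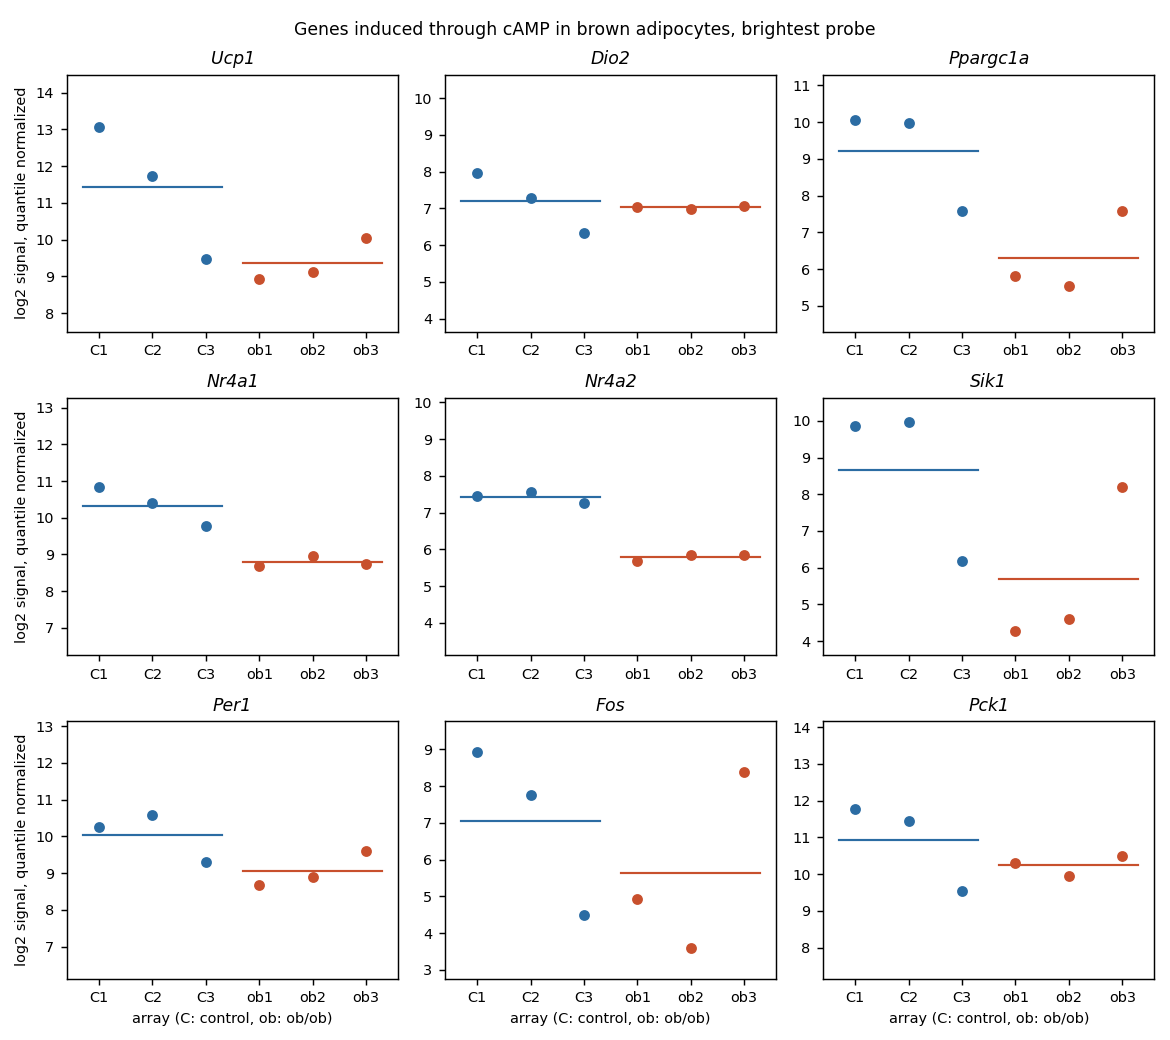
Quantile-normalized log2 signal (vertical axis, each panel 7 log2 units high) of the brightest probe of the 9 tested genes induced through cAMP, on the 3 control (C, blue) and 3 ob/ob (ob, red) arrays (horizontal axis), with lines at the group means. *Nr4a1*, *Nr4a2*, and *Ppargc1a* have every red point below every blue one, and in the other 6 genes the groups overlap.

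CREB binds the cAMP response element, TGACGTCA, or the shorter TGACG. The 250 bases before the annotated start are shown for 4 named genes of this class, which is defined by the pathway, and for *Prkar1a*, a PKA subunit whose promoter holds the full element, taken from RefSeq on GRCm38.p6, with TGACG on either strand in capitals. The full element holds TGACG on both strands.
Nr4a2 (chr2:57124004-57124253, minus strand): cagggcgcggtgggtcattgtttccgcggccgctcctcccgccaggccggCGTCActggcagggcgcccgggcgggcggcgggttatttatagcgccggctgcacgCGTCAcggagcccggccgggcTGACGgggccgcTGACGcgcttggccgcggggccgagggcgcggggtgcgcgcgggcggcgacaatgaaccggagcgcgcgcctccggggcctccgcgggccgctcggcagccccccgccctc
Nr4a1 (chr15:101266596-101266845, plus strand): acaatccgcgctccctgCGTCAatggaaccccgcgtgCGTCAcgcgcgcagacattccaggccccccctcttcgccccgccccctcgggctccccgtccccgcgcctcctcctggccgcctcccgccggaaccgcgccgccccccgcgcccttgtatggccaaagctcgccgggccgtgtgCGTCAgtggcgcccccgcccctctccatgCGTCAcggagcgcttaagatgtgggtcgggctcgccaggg
Ppargc1a (chr5:51567726-51567975, minus strand): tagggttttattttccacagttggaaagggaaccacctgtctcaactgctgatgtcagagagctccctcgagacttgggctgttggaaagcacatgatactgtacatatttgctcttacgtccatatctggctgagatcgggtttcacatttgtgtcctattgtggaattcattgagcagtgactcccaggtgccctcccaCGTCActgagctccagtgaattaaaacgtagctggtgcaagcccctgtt
Ucp1 (chr8:83290098-83290347, plus strand): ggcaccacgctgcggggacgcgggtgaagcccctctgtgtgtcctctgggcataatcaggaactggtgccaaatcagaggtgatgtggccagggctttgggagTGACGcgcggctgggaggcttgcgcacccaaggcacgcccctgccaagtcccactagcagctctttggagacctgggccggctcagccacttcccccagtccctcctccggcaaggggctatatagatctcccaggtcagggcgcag
Prkar1a (chr11:109650699-109650948, plus strand): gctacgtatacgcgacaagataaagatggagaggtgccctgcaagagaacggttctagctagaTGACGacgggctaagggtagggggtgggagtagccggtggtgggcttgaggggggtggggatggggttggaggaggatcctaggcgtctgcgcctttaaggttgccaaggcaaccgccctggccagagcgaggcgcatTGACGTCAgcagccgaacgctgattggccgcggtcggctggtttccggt

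The 10 genes of this class in the promoter table had 11 promoters. All 11 held TGACG and 1, that of *Dio2*, the full element, compared with 17.8% and 1.55% of 32851 promoters of the same length. The class was written from genes known to answer cAMP, so the share describes the list. *Nr4a1* and *Nr4a2* held TGACG at 4 places each, and *Ppargc1a* and *Ucp1* at 1 each. Of the 9 genes of the receptor to PKA chain 6 were in the table, with 14 promoters, of which 6 held TGACG. By gene, 4 held it in at least 1 promoter (*Adrb1*, *Adra2a*, *Prkaca*, and *Prkar1a*). *Prkar1a* alone of these held the full element, in the promoter shown last, which was 1 of its 6. A match is a run of letters and not a measured binding site.

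Above the cyclase, *Adra2b*, an α2 receptor coupled to the inhibitory G protein, read 9.72 to 10.56 in control and 10.88 to 11.28 in ob/ob, a difference of 0.93 with a standard error of 0.36 (past an unadjusted limma p of 0.05). All 3 ob/ob samples lay above all 3 controls for *Adra2b*, whereas they lay below with the brighter *Adrb3* probe. *Gnas*, the stimulatory G protein subunit, whose locus makes several transcripts, differed by −0.65 with a standard error of 1.02 and was lowest in control 3, at 8.07. It moved with the samples kept, from −0.01 without control 1 to −1.71 without control 3 and −2.30 without control 3 and ob/ob 3.

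**Figure D4:**
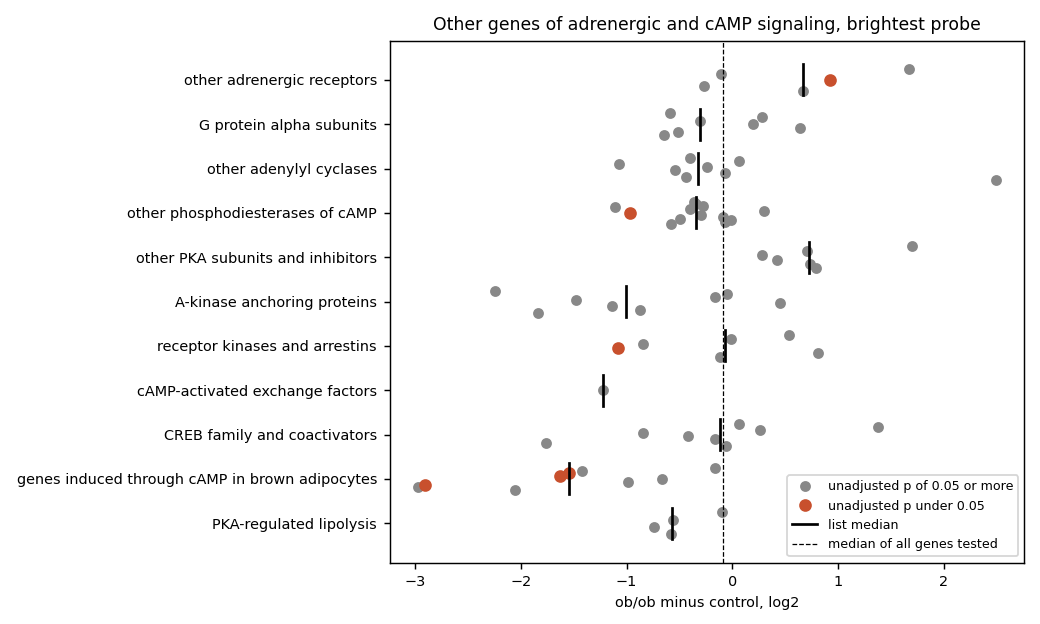
Difference between ob/ob and control in log2 units (horizontal axis) of the brightest probe of each of the 75 tested pathway genes, by class (vertical axis). Red points have an unadjusted limma p under 0.05, short vertical lines are class medians, and the dashed line is the median of all genes tested, −0.09. All 9 tested cAMP-induced genes lie below 0, and all 6 other PKA subunits and inhibitors lie above it.

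Among the other cAMP phosphodiesterases 12 of 13 tested were lower, with a median of −0.35. For this and the later class counts, 57.2% of all genes were lower with all 6 arrays, with a median of −0.09. Without control 3 and ob/ob 3, 8824 of all 19011 genes were lower, with a median of 0.07. *Pde4a*, a cAMP-specific enzyme, read 8.27, 8.37, and 7.92 on the control arrays, against 7.31, 7.57, and 6.78 on the ob/ob arrays. These groups did not overlap, and the difference was −0.97 with a standard error of 0.36 (past an unadjusted limma p of 0.05), but the other *Pde4a* probe differed by 0.10. Of the 13, 6 were lower without control 3 and ob/ob 3, and the median was then 0.09. The other adenylyl cyclases were lower in 6 of 8, with a median of −0.32, but in 4 of 8, with a median of 0.12, without control 3 and ob/ob 3. The largest of their differences was *Adcy9*, singled out after its values were seen, at 2.49 with a standard error of 1.39, and its values ran from 8.25 to 12.40 in control and from 10.08 to 13.30 in ob/ob.

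The other PKA subunits and inhibitors were higher in 6 of 6, with a median of 0.72 and a range of 0.28 to 1.70, and none passed an unadjusted limma p of 0.05. In 2 of these 6 every ob/ob array was above every control array, where the share over all genes was 3.78%. Without control 3 and ob/ob 3, 1 of the 6 was lower, and the median was 0.24. The A-kinase anchoring proteins, which tether PKA, were lower in 7 of 8 with a median of −1.01. Their median signal was 9.23, 9.01, and 5.70 on the control arrays compared with 5.50, 5.26, and 9.01 on the ob/ob arrays, so control 3 lay with ob/ob 1 and 2 and ob/ob 3 with control 1 and 2, and 6 of the 8 were lower without control 3 and ob/ob 3. Of the receptor kinases and arrestins, which switch off stimulated receptors, *Grk3* read 7.81, 7.71, and 6.95 on the control arrays, against 6.36, 6.69, and 6.18 on the ob/ob arrays. The groups of *Grk3* did not overlap, and the difference was −1.08 with a standard error of 0.38 (past an unadjusted limma p of 0.05).

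Downstream of PKA, the lipase *Lipe* (hormone-sensitive lipase) differed by −0.56 with a standard error of 0.52, and *Plin1*, the perilipin that PKA phosphorylates on the lipid droplet, by −0.74 with a standard error of 0.57. Neither passed an unadjusted p of 0.05, but without control 3 and ob/ob 3 *Lipe* was positive (0.16) and *Plin1* was at −1.59, while without control 1 *Plin1* was at −0.40. CREB and its coactivators were lower in 5 of 8, with a median of −0.11, and in 6 of 8 without control 3 and ob/ob 3. *Th*, tyrosine hydroxylase of sympathetic nerves, read 9.06, 9.25, and 9.59 on the control arrays compared with 9.83, 10.08, and 8.71 on the ob/ob arrays, so the groups overlapped, with a difference of 0.24 and a standard error of 0.46. Over the 9 sympathetic and Schwann cell markers, 8 of them detected, the mean was 6.73 to 6.79 in control and 6.57 to 7.15 in ob/ob. *Lep*, the mutated gene, read 4.57 to 5.74 in control and 5.83 to 9.33 in ob/ob. The ob mutation leaves a transcript that a probe can measure, so the *Lep* signal does not check the genotype.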

How the data were processed

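For each of the 6 arrays, the authors deposited the spot intensity from the scanner software (Agilent Feature Extraction, version 11.0.1.1, per the submitters' processing notes), corrected for background and not normalized between arrays, and a table of log2 values that they had quantile normalized. The authors' columns correlated at 0.987 to 0.998 with the scanner values, and their medians were 6.00 to 6.01. Of 39429 probes, 104 with outlier flags on all spots of an array were left out. Log2 intensities were averaged over the spots of a probe, quantile normalized, and fitted with limma (version 3.58.1, R 4.3.3) for the 35448 probes with at least 50% of spots well above background on at least 3 arrays, with Benjamini-Hochberg adjustment over all of them. The brightest probe by mean stood for a gene.

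Names came from RefSeq accessions (27234 of 28684 matched) through the annotation of GRCm38.p6. The array uses another build, so the only positions given are those of the promoter sequences, on GRCm38.p6. The labels gave the groups. The genes, the lists, and the rule for the genes named (the 9 genes, 7 set pathway genes, those at an unadjusted p under 0.05, *Lep*, and the 10 genes of highest or lowest correlation with *Adrb3*) were chosen with earlier results of these data known. The values of 1 gene that the rule names are not reported here. Tables were made in Python 3.11.15 with numpy 2.4.6 and pandas 2.3.3, and figures in matplotlib 3.10.9. The alternatives were other normalizations, other detection filters, the methods' t-test, left-out arrays, and blocks for scan and replicate number. Leaving out control 3 and ob/ob 3 together was chosen after the data were seen.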

Additional observations from a re-analysis of the deposited data

How the results depend on the processing

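Of the differences of single genes, 272 of 293 alternative values kept their direction and side of the threshold or moved by less than the spread within groups. The direction turned for *Adra1a*, whose difference was near 0, with 6 of 12 alternatives, down to −0.32 with the scan as a block, for *Pde3b* without control 1, control 2, ob/ob 1, or ob/ob 2 (0.18 to 0.52), and for 4 more genes with arrays left out, over ranges of −0.61 to 0.22 for *Dio2*, −1.32 to 1.11 for *Prkar2b*, −1.46 to 1.64 for *Prkar1a*, and −0.89 to 0.16 for *Lipe*. *Dio2* turned without control 1, *Lipe* without control 3 and ob/ob 3, and *Prkar2b* and *Prkar1a* without either or both of these arrays. limma called 0 probes at the adjusted threshold in either direction with every setting but the removal of control 3 and ob/ob 3, which called 8169 lower and 8090 higher. Those arrays were left out for standing apart, which narrows the spread by construction, and whether these arrays carry the right label was not tested. At an unadjusted p under 0.05 and 2-fold, 478 probes were lower and 598 higher (55.6% higher). The counts lower and higher were 312 and 139 with the 75th percentile (30.8% higher), which put the median gene at −0.30 in place of −0.09, 310 and 128 with normexp (29.2% higher), 220 and 139 with the replicate block, 113 and 35 with the scan block, 313 and 327 with the methods' t-test, and 439 and 394 with detection on all arrays. Leaving out 1 array gave 173 to 1170 lower and 112 to 1762 higher, the highest without control 3. Without both arrays 6789 were lower and 5869 higher. Of the pathway genes, 4 were lower and 0 higher, against 2 lower with the replicate block and 1 higher with the 75th percentile. Leaving out 1 array gave 3 to 14 lower and 0 to 4 higher, the highest without control 3, and leaving out both gave 28 and 7. Without ob/ob 3, 9 were lower and 2 higher. The counts over all 19011 genes rose as well, from 285 lower and 322 higher with all 6 arrays. They were 777 and 998 without control 3, 695 and 856 without ob/ob 3, and 4397 and 3161 without both.

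Same-numbered samples did not deviate together (correlations of −0.78, −0.66, and −0.85). With 3 samples a group, and control 3 and ob/ob 3 standing apart, these correlations cannot tell whether the replicate numbers pair the samples. The replicate block left 0 probes at the adjusted threshold, as the main fit did, and lowered the unadjusted counts given above. Array quality weights were estimated but did not converge and were not used. With 3 samples a group, a difference of the size of the spread of *Pde3b* or *Prkar1a* was not detectable, and no exact permutation test could have gone below p = 0.10.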
